A study of Arabidopsis thaliana with 6 samples.

Results

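Aquaporins are channel proteins that let water, and in many members small uncharged solutes, pass through membranes along their gradients. Plants sort them into plasma membrane intrinsic proteins (PIPs), tonoplast intrinsic proteins of the vacuole (TIPs), NOD26-like intrinsic proteins (NIPs), several of which carry boric acid or other metalloids, and small basic intrinsic proteins (SIPs) of the endoplasmic reticulum. In roots, PIPs and TIPs are known as the main route for water across cells, and PIP1 proteins often need a PIP2 partner to reach the plasma membrane. The genes described here are the 35 *Arabidopsis* aquaporin genes, taken as the complete family by gene identifier and not by their expression. They comprise 13 *PIP*, 10 *TIP*, 9 *NIP* and 3 *SIP* genes among the 33557 genes in the tables.

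Their transcript levels were measured by RNA-seq in roots of 10-day-old *Arabidopsis thaliana* plants grown with 10 mM nitrate, in 3 libraries of wild type (WT) and 3 of *CEPDL2ox*. WT was the Col ecotype without a transgene. *CEPDL2ox* plants overexpress *CEPDL2* (*AT3G62960*), which encodes a glutaredoxin-like polypeptide, from the CaMV 35S promoter. That promoter is active in most tissues and not only where *CEPDL2* is normally expressed. No agent other than the common nitrate medium was given to either group, and the transgenic line that was sequenced is not named in the sources used here. The methods state for the study's experiments in general that biological replicates were independent, and the labels do not say which cultures the libraries came from. In bulk roots, fewer cells of a type and less RNA per cell cannot be told apart.

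Levels are given in FPKM (fragments per kilobase of transcript, relative to the mapped reads of the library), which can be compared between genes because they are per length. *CEPDL2* itself was listed at 3.27, 5.78 and 9.45 FPKM in the WT libraries (replicates 1, 2 and 3, the order kept throughout) and at 7948, 8838 and 8337 FPKM in the *CEPDL2ox* libraries, so every library matched its label. The depth estimated from the smallest steps in the tables was between 5884360 and 6273449 reads per WT library and between 5138391 and 5522695 reads per *CEPDL2ox* library. WT replicate 1 stood apart in green-tissue genes: the summed level of 39 photosynthesis genes was 8430 FPKM there, against 1651 and 1279 FPKM in the other WT libraries and between 676 and 1321 FPKM in *CEPDL2ox*. All 39 were highest in that library, as were 9 of 10 leaf and stomatal development genes, of which 5 were at 0 in every other library. None of the 39 was called (median log2 fold change -1.49), and none of the 10 reached the level to be tested. Markers of root hair and epidermis, endodermis, xylem, phloem, and meristem and cap were detected in all 6 libraries, and of those lists only the first and the fourth held called genes. The root hair genes *EXPA7* (log2 fold change 0.44) and *RHD6* (0.73) and the phloem companion cell transporter *SUC2* (0.67) rose in *CEPDL2ox*, with Benjamini-Hochberg adjusted p = 0.0266, 0.0341 and 0.0387 by limma. These were 2 of 5 and 1 of 3 genes of their lists, beside 3.71% of all genes tested called higher. The others were not called: *COBL9* (0.090), *GL2* (-0.096) and *RSL4* (0.36), and in phloem *APL* (0.15) and *SEOR1* (0.042). With 1 library left out, *EXPA7* stayed under 0.05 only without *CEPDL2ox* replicate 2, *RHD6* only without that library or WT replicate 3, and *SUC2* in none of the 6 fits (highest adjusted p 0.103, 0.128 and 0.129). The part of green tissue and of these cell types in the aquaporin values was not tested.

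The sequences that follow are shown because they tell how far sister genes, near copies of each other, can be told apart by reads of 75 bases. Each is the 75-base stretch of coding sequence around the first asparagine-proline-alanine (NPA) motif, the pore signature of the family, with the NPA codons in capitals (RefSeq, TAIR10.1, 5′ to 3′ on the coding strand). In the *TIP* and *NIP* genes shown the stretch lies within a single coding exon. In the *PIP* genes it crosses an intron, so that the coordinates cover more than 75 bases and the intron is left out of the sequence.
PIP1-1 (chr3:22733963-22734301, plus strand): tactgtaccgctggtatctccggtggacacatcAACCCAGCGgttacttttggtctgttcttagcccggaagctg
PIP1-2 (chr2:18910756-18911055, plus strand): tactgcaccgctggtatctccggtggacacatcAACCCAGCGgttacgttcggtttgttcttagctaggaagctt
PIP1-5 (chr4:12221101-12221448, plus strand): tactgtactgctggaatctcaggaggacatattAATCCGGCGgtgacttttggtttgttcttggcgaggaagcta
PIP2-2 (chr2:15614317-15614512, minus strand): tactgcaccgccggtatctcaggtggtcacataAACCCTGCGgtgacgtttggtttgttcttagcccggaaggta
PIP2-3 (chr2:15618058-15618253, plus strand): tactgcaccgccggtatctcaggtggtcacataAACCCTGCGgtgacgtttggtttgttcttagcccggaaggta
TIP1-1 (chr2:15445709-15445783, plus strand): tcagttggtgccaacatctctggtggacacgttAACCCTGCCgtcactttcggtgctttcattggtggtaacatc
TIP1-2 (chr3:9723407-9723481, minus strand): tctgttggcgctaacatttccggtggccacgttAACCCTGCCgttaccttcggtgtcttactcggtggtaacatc
TIP2-1 (chr3:5505850-5505924, plus strand): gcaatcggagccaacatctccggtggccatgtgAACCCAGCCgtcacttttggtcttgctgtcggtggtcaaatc
NIP1-1 (chr4:10422917-10422991, minus strand): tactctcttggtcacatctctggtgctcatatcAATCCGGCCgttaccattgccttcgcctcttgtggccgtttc
NIP1-2 (chr4:10366641-10366715, plus strand): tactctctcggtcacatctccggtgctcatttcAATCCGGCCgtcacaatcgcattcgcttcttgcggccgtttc

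*PIP1-1* and *PIP1-2* differed at 7 of these 75 bases, *TIP1-1* and *TIP1-2* at 13, and *NIP1-1* and *NIP1-2* at 9. Over their whole transcripts, none of these 6 genes shared a 75-base stretch with another gene within 2 mismatches. *PIP2-2* and *PIP2-3*, which lie next to each other on chromosome 2, were identical over this stretch (0 differences). They shared 381 windows within 2 mismatches, 30.0% of the windows of *PIP2-2* and 33.2% of those of *PIP2-3*, so the division of reads between them is uncertain. *TIP2-1* shared 46 windows (4.13%) with the overlapping gene *AT3G16250*, and *SIP2-1* shared 9 (0.785%) with the overlapping *AT3G56940*.

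Of the 35 genes, 28 averaged 1 FPKM or more across the 6 libraries and were tested, and 7 did not reach that level. *TIP3-1* and *TIP3-2*, known from the storage vacuoles of seeds, and *TIP5-1* and *NIP4-1*, known from pollen, were listed at 0 in all 6 libraries. *TIP1-3*, also a pollen gene, was listed at 0.286 FPKM in WT replicate 2 and at 0 elsewhere. *NIP2-1*, which carries lactic acid, and *NIP7-1*, a boric acid channel of anthers, did not pass 0.370 and 0.362 FPKM in any library. *NIP2-1* shared 84.5% of its windows with other genes within 2 mismatches, so its level is uncertain. The tested genes spanned a wide range, from *NIP4-2* at a mean of 1.31 FPKM to *TIP1-1* at 1064 FPKM, the latter the gene of rank 85 by mean level in the whole table.

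**Figure D1:**
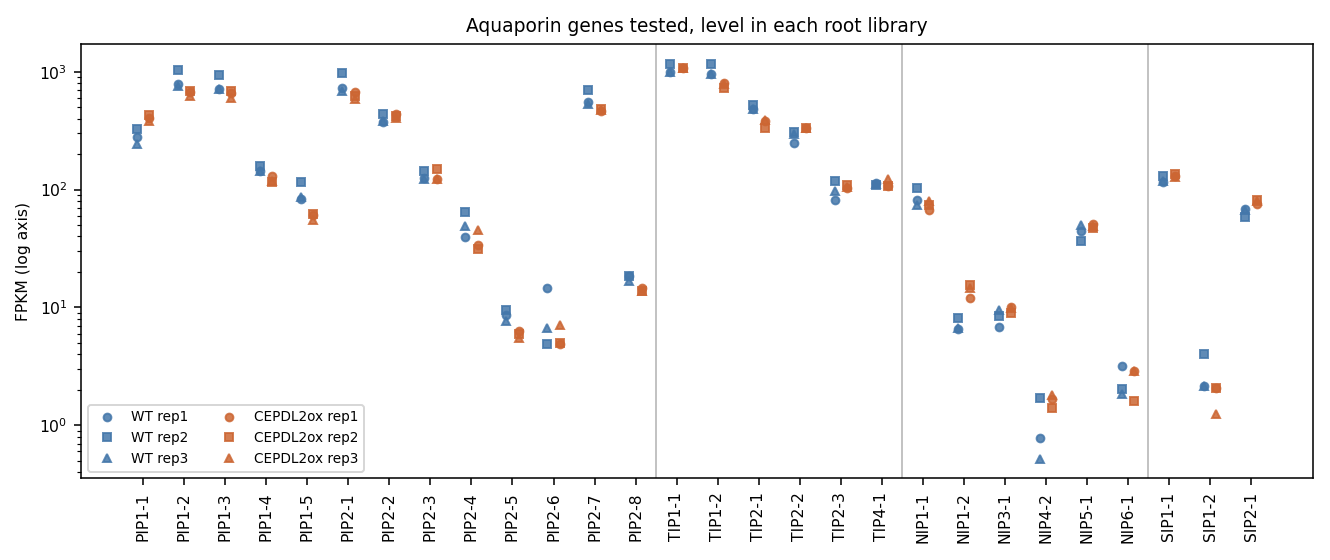
FPKM (log axis) of the 28 tested aquaporin genes in each WT (blue) and *CEPDL2ox* (orange) root library, with vertical lines between PIP, TIP, NIP and SIP genes. Levels ran from under 1 FPKM for *NIP4-2* to over 1000 FPKM for *TIP1-1*, *TIP1-2* and *PIP1-2* in WT replicate 2. The groups stayed close to each other for most genes.

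*CEPDL2ox* and WT roots were compared to ask which aquaporin transcripts differed when *CEPDL2* was overexpressed. *NIP1-2* and *PIP1-1* rose, and *PIP1-5* and *TIP2-1* fell, while the other 24 tested genes did not pass an adjusted p of 0.05 (limma on log2(FPKM + 1), Benjamini-Hochberg over all 19597 genes tested). These were 2 of 28 genes higher, beside 3.71% of all genes tested, and 2 of 28 lower, beside 2.0%. With the added threshold of an absolute log2 fold change above 1, 0 of the 28 were called in either direction, beside 1.16% of all genes higher and 0.424% lower. At an unadjusted p under 0.05 by limma, 4 of the 28 were higher and 9 lower, beside 11.4% and 11.8% of all genes.

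*NIP1-2* (*AT4G18910*), a plasma membrane NIP known for carrying aluminium malate in root cells, showed the largest fold change among the 28 genes. Its level was 6.51, 8.13 and 6.71 FPKM in WT and 12.0, 15.6 and 14.6 FPKM in *CEPDL2ox*. All *CEPDL2ox* libraries lay above all WT libraries, with a gap wider than the range of either group. The log2 fold change of FPKM + 1 was 0.89 (SE 0.14, n = 3 per group, 95% interval 0.57 to 1.21), with an adjusted p of 0.0117 by limma. This is an increase of 85.4% in FPKM + 1, while the mean FPKM itself went from 7.11 in WT to 14.1 in *CEPDL2ox*. Percent changes of single genes below are also those of FPKM + 1. The levels of *NIP1-2* rested on about 45.5 to 101 reads per library. The adjusted p stayed under 0.05 in 11 of 14 alternatives (range 0.0101 to 0.0554) and passed it without WT replicate 1 (0.0554), *CEPDL2ox* replicate 2 (0.0554) or *CEPDL2ox* replicate 3 (0.0507).

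*PIP1-1* (*AT3G61430*), one of the PIP1 water channels of roots, was listed at 277, 325 and 243 FPKM in WT and at 404, 426 and 385 FPKM in *CEPDL2ox*. The groups did not overlap, and *PIP1-1* was the only *PIP* gene whose *CEPDL2ox* libraries all lay above WT, beside 13.8% of all genes tested. It rose by 44.5%, a log2 fold change of 0.53 (SE 0.11, 95% interval 0.28 to 0.78), with an adjusted p of 0.0338 by limma. This call was less stable than that of *NIP1-2*: it held in 6 of 14 alternatives (adjusted p 0.0182 to 0.118), and among the fits with 1 library left out only in the fit without WT replicate 2.

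*PIP1-5* (*AT4G23400*), another member of the PIP1 group, was listed at 82.7, 115.5 and 86.7 FPKM in WT and at 60.8, 61.6 and 55.5 FPKM in *CEPDL2ox*. All *CEPDL2ox* libraries were below all WT libraries, and WT replicate 2 was the highest. It fell by 36.5%, with a log2 fold change of -0.66 (SE 0.13, 95% interval -0.95 to -0.36) and an adjusted p of 0.0289 by limma. The call held in 9 of 14 alternatives (adjusted p 0.0216 to 0.1), including those without WT replicate 1 and without WT replicate 2, and was lost without WT replicate 3 and without each *CEPDL2ox* replicate.

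*TIP2-1* (*AT3G16240*), a vacuolar channel that also carries ammonia, was listed at 478, 517 and 480.5 FPKM in WT and at 384, 335 and 388 FPKM in *CEPDL2ox*. Again the groups did not overlap, and the WT libraries were close to each other. It fell by 25.1%, with a log2 fold change of -0.42 (SE 0.082, 95% interval -0.61 to -0.23) and an adjusted p of 0.0289 by limma. The call held in 6 of 14 alternatives (adjusted p 0.0250 to 0.0885) and in none of the 6 fits with 1 library left out. The overlapping gene *AT3G16250* was listed at 11.1 FPKM in WT replicate 1 and at no more than 0.715 FPKM in the other libraries, and its part in the *TIP2-1* values was not tested.

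**Figure D2:**
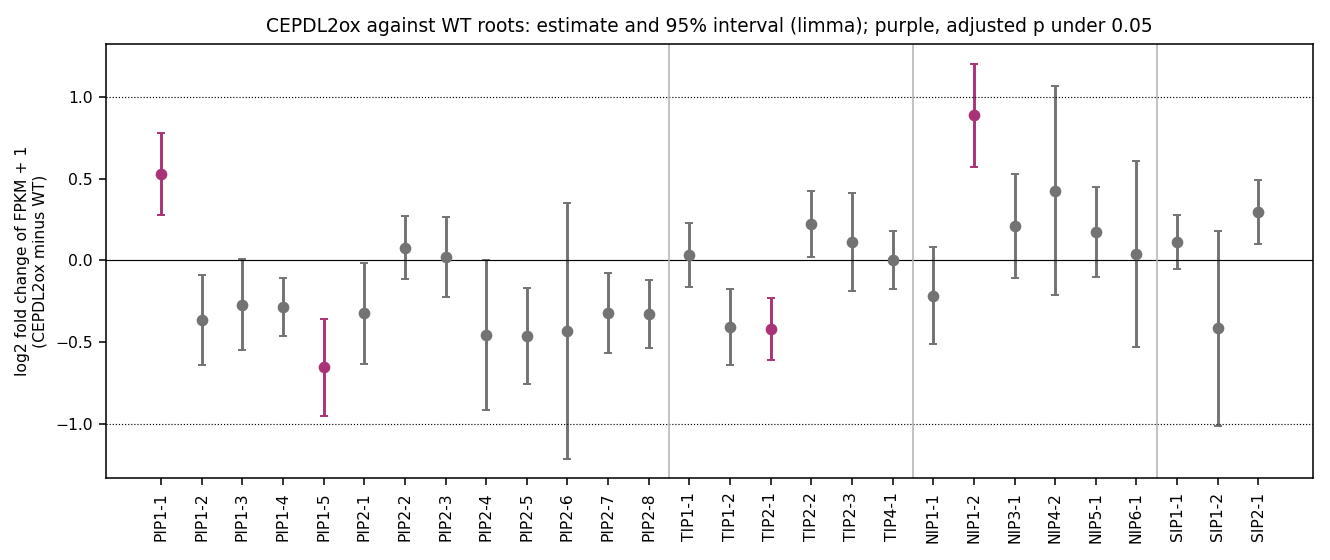
log2 fold change of FPKM + 1, *CEPDL2ox* minus WT, of the 28 tested aquaporin genes, with 95% intervals from limma (n = 3 per group, dotted lines at -1 and 1). Purple marks the 4 genes with an adjusted p under 0.05, of which *NIP1-2* (0.89) and *PIP1-1* (0.53) lie above 0 and *PIP1-5* (-0.66) and *TIP2-1* (-0.42) below it.

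Apart from *PIP1-1*, most *PIP* genes had lower values in *CEPDL2ox*, although *PIP1-5* alone passed the test among them. The estimates of 10 of the 13 *PIP* genes were below 0, with a median log2 fold change of -0.32, beside -0.027 over all genes tested. In 8 of the 13, all *CEPDL2ox* libraries lay below all WT libraries: *PIP1-2*, *PIP1-3*, *PIP1-4*, *PIP1-5*, *PIP2-1*, *PIP2-5*, *PIP2-7* and *PIP2-8*. Over the 28 tested genes this held for 11, with *TIP1-2*, *TIP2-1* and *SIP1-2*, beside 16.1% of all genes. In the opposite direction it held for 4 (*PIP1-1*, *TIP2-2*, *NIP1-2* and *SIP2-1*), beside 13.8% of all genes.

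The 2 most abundant PIP1 genes were *PIP1-2* and *PIP1-3*, both water channels of the plasma membrane. *PIP1-2* (*AT2G45960*) was listed at 793, 1026 and 760.3 FPKM in WT and at 671, 687 and 627 FPKM in *CEPDL2ox*, a log2 difference of -0.37 (SE 0.12, 95% interval -0.64 to -0.090, limma adjusted p = 0.120). *PIP1-3* (*AT1G01620*) was listed at 712, 933 and 709 FPKM in WT and at 661, 684 and 593.5 FPKM in *CEPDL2ox*, a log2 difference of -0.27 (SE 0.12, 95% interval -0.55 to 0.010, limma adjusted p = 0.230). WT replicate 2 was the highest library for both, and neither passed the test.

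Among the PIP2 genes, whose proteins form water channels on their own, *PIP2-1* and *PIP2-7* were the most abundant. *PIP2-1* (*AT3G53420*), which also conducts hydrogen peroxide, was listed at 720.4, 972 and 685 FPKM in WT and at 667, 624 and 586 FPKM in *CEPDL2ox*, a log2 difference of -0.32 (SE 0.13, 95% interval -0.64 to -0.013, limma adjusted p = 0.199). *PIP2-7* (*AT4G35100*) was listed at 557, 696 and 535 FPKM in WT and at 465, 485 and 469.6 FPKM in *CEPDL2ox*, a log2 difference of -0.32 (SE 0.11, 95% interval -0.57 to -0.078, limma adjusted p = 0.121). Neither passed the test, although the groups of both were apart.

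The less abundant *PIP1-4* (*AT4G00430*), *PIP2-5* and *PIP2-8* were lower by 18.0%, 27.4% and 20.4% in FPKM + 1. Their groups did not overlap, with limma adjusted p = 0.0724, 0.0787 and 0.0769. *PIP2-4*, a root PIP, overlapped between groups and had a log2 difference of -0.46 (95% interval -0.91 to 0.0032, limma adjusted p = 0.219). *PIP2-6* (*AT2G39010*) was at 14.6 FPKM in WT replicate 1, the library rich in photosynthesis transcripts, and between 4.85 and 7.08 FPKM in the other 5. Without that library its log2 difference was -0.028.

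*PIP2-2* (*AT2G37170*), which contributes to water uptake by root cells, and its neighbour *PIP2-3* had estimates close to 0. *PIP2-2* ranged from 376 to 441 FPKM in WT and from 404 to 438 FPKM in *CEPDL2ox* (log2 difference 0.078, 95% interval -0.12 to 0.27). *PIP2-3* ranged from 122 to 144 FPKM in WT and from 123 to 151 FPKM in *CEPDL2ox* (log2 difference 0.019, 95% interval -0.23 to 0.26). Both groups overlapped in both genes. Either estimate turned below 0 when the libraries were scaled to the same summed FPKM (-0.013 and -0.071), and that of *PIP2-3* also did so after quantile normalization (-0.015).

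WT replicate 2 weighed on these comparisons. It was the highest of the 6 libraries for 15 of the 28 tested genes, among them 9 of 13 *PIP* and 4 of 6 *TIP* genes, beside 20.9% of all genes tested. Without it the median log2 fold change of the *PIP* genes was -0.23 rather than -0.32. Leaving out a library can only add to the genes without overlap: the count of genes higher went from 4 to 9, beside 18.0% of all genes, and that of genes lower stayed at 11, beside 21.6%. What set this library apart was not tested. Without WT replicate 1, the PIP median was -0.33.

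**Figure D3:**
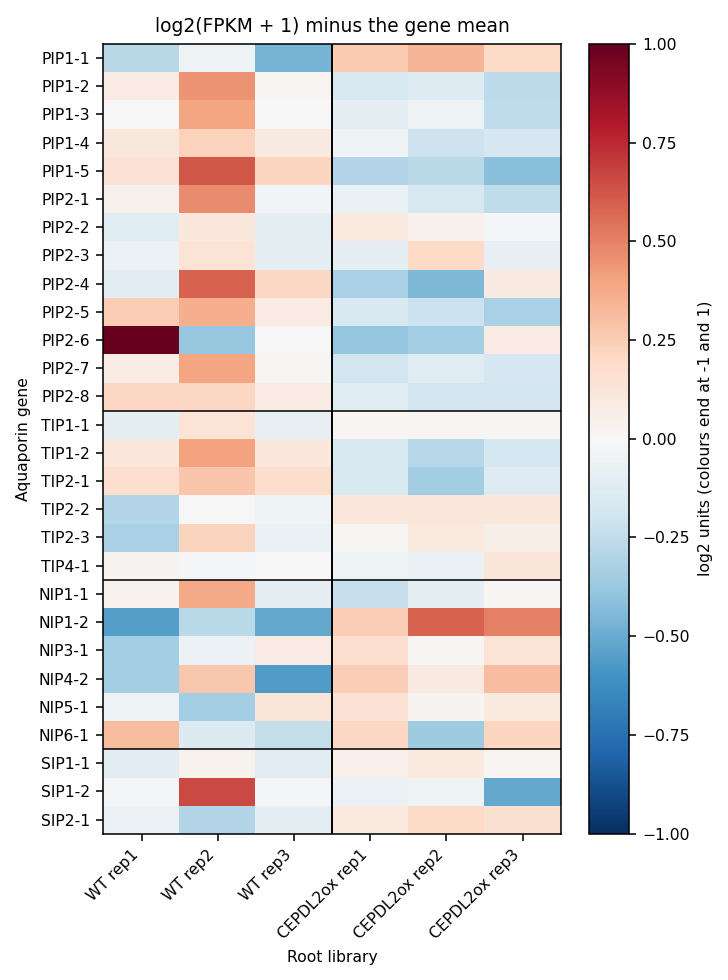
log2(FPKM + 1) of each tested aquaporin gene in each library minus the mean of that gene over the 6 libraries (colour, ending at -1 and 1), WT left and *CEPDL2ox* right of the line. *PIP1-1* and *NIP1-2* are above 0 in all *CEPDL2ox* libraries and below 0 in all WT libraries, and WT replicate 2 is the highest library of 9 of the 13 *PIP* genes, while *PIP2-6* in WT replicate 1 (1.02) is the single value above 1.

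*TIP1-1* and *TIP1-2* had the highest mean levels of the family. *TIP1-1* (*AT2G36830*), the main vacuolar water channel of roots, was listed at 992, 1167 and 1001 FPKM in WT and at 1078, 1069.5 and 1073 FPKM in *CEPDL2ox*. The groups overlapped, and the log2 difference was 0.031 (SE 0.084, 95% interval -0.16 to 0.23, limma adjusted p = 0.856), turning to -0.060 under scaling to the same summed FPKM. *TIP1-2* (*AT3G26520*), its sister gene, was listed at 957, 1171 and 952.5 FPKM in WT and at 797, 727 and 787 FPKM in *CEPDL2ox*. Here the groups were apart, with a log2 difference of -0.41 (SE 0.099, 95% interval -0.64 to -0.18, limma adjusted p = 0.0568), under 0.05 in 2 of 14 alternatives.

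*TIP2-2* and *TIP2-3*, vacuolar channels that are close relatives of *TIP2-1*, did not fall with it. *TIP2-2* (*AT4G17340*) was listed at 249.5, 306 and 296 FPKM in WT and at 330.1, 329.8 and 330.0 FPKM in *CEPDL2ox*, higher without overlap but not past the test (log2 difference 0.22, limma adjusted p = 0.181). *TIP2-3* lay between 81.5 and 119 FPKM in WT and between 103 and 109 FPKM in *CEPDL2ox* (log2 difference 0.11, 95% interval -0.19 to 0.41). *TIP4-1*, another root TIP, lay between 107 and 122 FPKM in all 6 libraries, with a 95% interval of the log2 difference from -0.17 to 0.18. Over the 6 tested *TIP* genes, 2 estimates were below 0 and the median log2 fold change was 0.017.

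Among the *NIP* genes, *NIP1-1* and *NIP5-1* were the most abundant. *NIP1-1* (*AT4G19030*), known for letting arsenite into roots, was listed at 81.1, 103 and 74.2 FPKM in WT and at 67.1, 73.6 and 79.7 FPKM in *CEPDL2ox*, with overlap (log2 difference -0.22, SE 0.13, 95% interval -0.51 to 0.083, limma adjusted p = 0.359). *NIP5-1* (*AT4G10380*), the boric acid channel of roots under boron limitation, was listed at 44.7, 36.4 and 50.4 FPKM in WT and at 51.1, 47.1 and 49.5 FPKM in *CEPDL2ox*, also with overlap (log2 difference 0.18, SE 0.12, 95% interval -0.10 to 0.45, limma adjusted p = 0.420). Among the 6 tested *NIP* genes, only *NIP1-2* thus had groups that were apart, beside 13.8% of all genes apart as higher and 16.1% as lower. *NIP3-1*, *NIP4-2* and *NIP6-1* lay between 0.522 and 10.1 FPKM and had log2 differences of 0.21, 0.43 and 0.039, with 95% intervals that all included 0. *NIP3-1* shared 19.9% of its 75-base windows with *AT2G21020*, so its level is uncertain.

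The *SIP* genes encode channels of the endoplasmic reticulum. *SIP1-1* (*AT3G04090*) was listed at 117, 129 and 117 FPKM in WT and at 130.0, 135 and 128 FPKM in *CEPDL2ox*, with overlap (log2 difference 0.11, SE 0.071, 95% interval -0.053 to 0.28, limma adjusted p = 0.386). *SIP2-1* (*AT3G56950*) was listed at 68.1, 58.0 and 66.8 FPKM in WT and at 76.1, 81.6 and 79.3 FPKM in *CEPDL2ox* (log2 difference 0.30, SE 0.084, 95% interval 0.10 to 0.49, limma adjusted p = 0.0875). Its groups were apart, but it did not pass the test. The overlapping *AT3G56940* was listed at 78.0 FPKM in WT replicate 1 and between 11.8 and 31.4 FPKM elsewhere, and its part in the *SIP2-1* values was not tested. *SIP1-2* was low, between 1.24 and 4.06 FPKM, and rested on about 6.34 to 25.3 reads per library.

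The summed level of the subfamilies was compared without a test. The 13 *PIP* genes summed to 3870.4, 4907 and 3746 FPKM in WT and to 3678, 3713 and 3436 FPKM in *CEPDL2ox*. The *CEPDL2ox* sums lay below the WT sums, at 0.864 times the WT mean, or 0.948 times without WT replicate 2. The *TIP* genes summed to 3067 ± 282 FPKM (SD, n = 3) in WT and to 2762 ± 72.8 FPKM in *CEPDL2ox*, a ratio of 0.900 (0.950 without WT replicate 2). *NIP* sums were 149 ± 9.56 and 151 ± 7.04 FPKM, a ratio of 1.01 with overlap, and *SIP* sums were 188 ± 2.65 and 212 ± 5.97 FPKM, a ratio of 1.12 without overlap. *PIP* genes held between 52.0% and 56.7% of the summed FPKM of the family in the 6 libraries and *TIP* genes between 39.2% and 42.5%.

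Ratios of sister genes within a library do not depend on the scaling of that library, apart from the pseudocount of 1 FPKM, and were used to ask whether near copies shifted against each other. Of 10 pairs, 8 had both genes tested. The log2 ratio of *PIP1-1* to *PIP1-2* was -1.51, -1.66 and -1.64 in WT and -0.73, -0.69 and -0.70 in *CEPDL2ox*. The 2 groups were far apart compared with their spread: *PIP1-1* stood at 0.317 to 0.350 times *PIP1-2* in WT and at 0.602 to 0.620 times in *CEPDL2ox*. The difference was 0.90 on the log2 scale and between 0.87 and 0.94 when each library was left out in turn.

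*NIP1-1* and *NIP1-2* also shifted against each other. Here the less abundant gene, *NIP1-2*, gained on the other, as *PIP1-1* did, whereas in the *SIP1* pair below the more abundant *SIP1-1* gained. *NIP1-1* exceeded *NIP1-2* by 12.5, 12.7 and 11.1 times in WT and by 5.58, 4.73 and 5.46 times in *CEPDL2ox*, a difference of -1.11 in the log2 ratio. *TIP1-1* was 1.04, 0.997 and 1.05 times *TIP1-2* in WT and 1.35, 1.47 and 1.36 times in *CEPDL2ox*, a difference of 0.44. *SIP1-1* over *SIP1-2* differed by 0.53, also without overlap, and rests on the low level of *SIP1-2*. For these 4 pairs the exact two-sided permutation test gave p = 0.10 (0.20 after Benjamini-Hochberg adjustment over 8 pairs), the smallest that this test allows with 3 against 3 libraries, so it cannot pass a threshold of 0.05 here. How often pairs of other genes are apart was not examined. The ratios with *PIP1-1* and *NIP1-2* reuse the values of genes already called.

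The other 4 pairs overlapped between groups. The log2 ratio differed by 0.017 for *PIP1-3* over *PIP1-4*, 0.0074 for *PIP2-7* over *PIP2-8*, 0.059 for *PIP2-2* over *PIP2-3* and 0.11 for *TIP2-2* over *TIP2-3*. The coding sequences of the pairs whose groups were apart were between 75.7% (*SIP1-1* and *SIP1-2*) and 87.6% identical, and those of the pairs with overlap between 81.5% (*TIP2-2* and *TIP2-3*) and 94.8% (*PIP2-2* and *PIP2-3*). Those of *PIP1-1* and *PIP1-2* were 87.6% identical, those of *NIP1-1* and *NIP1-2* 85.1%, those of *PIP1-3* and *PIP1-4* 85.2% and those of *PIP2-7* and *PIP2-8* 84.6%.

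**Figure D4:**
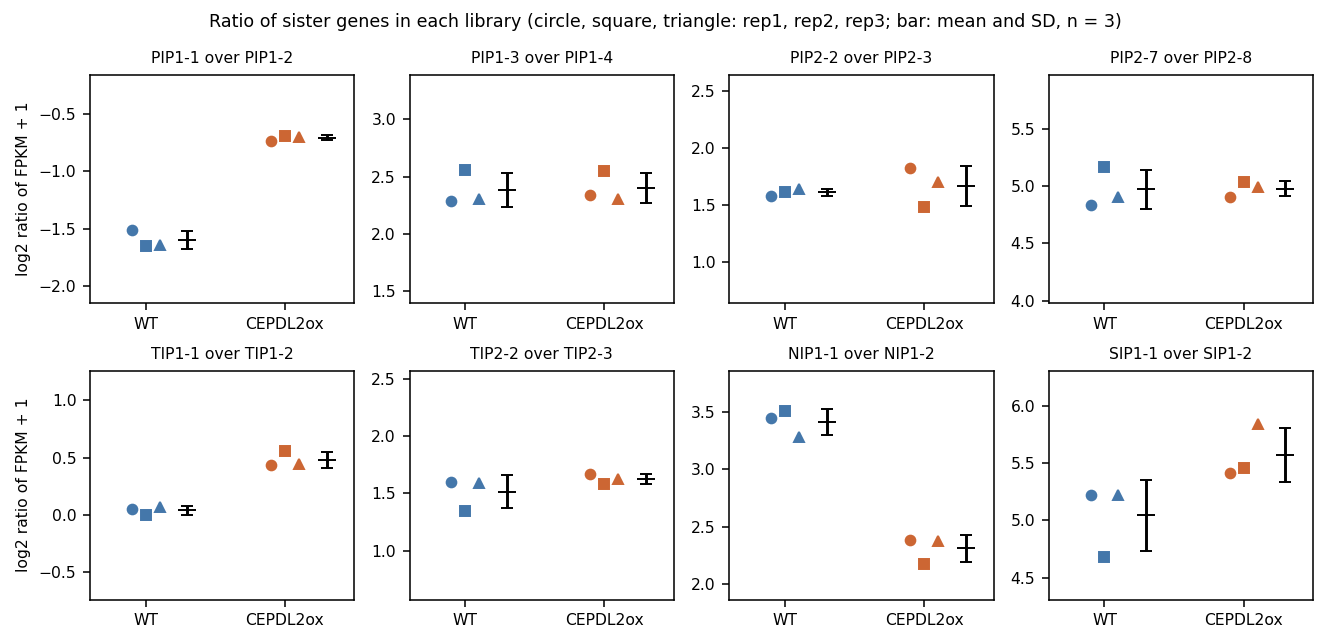
log2 ratio of FPKM + 1 of 8 pairs of sister genes in each WT (blue) and *CEPDL2ox* (orange) library, with the mean and SD (black, n = 3) beside each group, each panel spanning the same range on the log2 scale. The groups are apart for *PIP1-1* over *PIP1-2* (difference 0.90), *TIP1-1* over *TIP1-2* (0.44), *NIP1-1* over *NIP1-2* (-1.11) and *SIP1-1* over *SIP1-2* (0.53), and overlap for the other 4 pairs.

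In the 250 bases before the annotated gene start, the motif TGACG, the core bound by TGA transcription factors, searched on both strands, was found in 4 of the 35 genes (*PIP2-2*, *PIP2-5*, *TIP3-2* and *NIP1-1*), beside 18.1% of 32812 promoters of that length. The abscisic acid response core ACGTG, also on both strands, was found in 4 (*TIP1-1*, *TIP3-1*, *TIP5-1* and *SIP1-1*), beside 21.6%. None of the 4 genes that rose or fell held either motif in this window.

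Genes that act with aquaporins were examined from lists, whose counts stand beside 3.71% of all genes tested called higher and 2.0% called lower. Of 10 regulators of aquaporin activity or traffic, 1 rose: *TSPO*, a membrane protein that binds *PIP2-7* protein and directs it to degradation, was listed at 1.60, 1.51 and 1.81 FPKM in WT and at 3.22, 3.44 and 3.92 FPKM in *CEPDL2ox* (log2 fold change 0.78, SE 0.17, limma adjusted p = 0.0429, held in 5 of 13 alternatives and in none with a library left out, range 0.0135 to 0.111). None fell, and the median of the list was 0.17. Of 4 genes of boron and urea transport, 2 rose. *BOR1*, which exports boron toward the xylem, was listed at 22.8, 20.3 and 21.7 FPKM in WT and at 38.7, 32.9 and 33.5 FPKM in *CEPDL2ox* (log2 fold change 0.67, SE 0.096, limma adjusted p = 0.00889, held in 14 of 14 alternatives). *BOR4*, a boron exporter, was listed at 8.63, 9.32 and 9.78 FPKM in WT and at 19.1, 18.1 and 14.8 FPKM in *CEPDL2ox* (log2 fold change 0.83, SE 0.12, limma adjusted p = 0.00929, held in 12 of 14, up to 0.0548 without *CEPDL2ox* replicate 1 or 2). Neither gene overlapped between groups, whereas the boric acid channel *NIP5-1* did.

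Of 7 tested genes of the response to water deficit, 2 rose and 1 fell, beside 3.71% and 2.0% of all genes tested. *NCED3*, an enzyme of abscisic acid synthesis, was listed at 5.04, 6.10 and 10.5 FPKM in WT and at 18.3, 15.9 and 23.9 FPKM in *CEPDL2ox* (log2 fold change 1.35, SE 0.25, limma adjusted p = 0.0235, up to 0.0920 with a library left out and under 0.05 only without WT replicate 3). *LEA4-5*, a protective late embryogenesis abundant protein, was listed at 6.71, 11.9 and 17.9 FPKM in WT and at 55.0, 39.9 and 55.9 FPKM in *CEPDL2ox* (log2 fold change 2.04, SE 0.30, limma adjusted p = 0.00999, lost only without *CEPDL2ox* replicate 1 at 0.0649). *KIN1*, a gene induced by cold and abscisic acid, was listed at 1236, 906 and 1165 FPKM in WT and at 705, 530.4 and 642 FPKM in *CEPDL2ox* (log2 fold change -0.81, SE 0.15, limma adjusted p = 0.0214, up to 0.0847 with a library left out and under 0.05 only without WT replicate 2). The list thus held called genes in both directions, with a median of 0.56, beside -0.027 over all genes. That median is the estimate of *RAB18*, which was not called (limma adjusted p = 0.543) and rests on a low value in WT replicate 1. *RAB18* was listed at 1.02, 6.25 and 7.69 FPKM in WT and at 7.37, 6.02 and 5.87 FPKM in *CEPDL2ox*. Of 10 hypoxia genes, 1 rose, the haemoglobin gene *HB1* (log2 fold change 0.45, limma adjusted p = 0.0364, under 0.05 with a library left out only without *CEPDL2ox* replicate 2), and the median was 0.013.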

How the data were processed

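RNA-seq libraries (TruSeq RNA v2, single-end reads of 75 bases) were mapped to TAIR10 in the illumina BaseSpace pipeline, and FPKM per gene and library were deposited by the authors. The quantification tool is not given in the sources used here. Members and lists were chosen with earlier results of these data known. Genes averaging 1 FPKM or more across the 6 libraries (19597) were tested on log2(FPKM + 1) with limma 3.58.1 (lmFit, eBayes with trend; R 4.3.3), adjusted by Benjamini-Hochberg over all of them. Fold changes on this scale understate those of low genes. Values in every library were given for members with an adjusted p under 0.05 and the 2 most abundant of *PIP1*, *PIP2*, *TIP*, *NIP* and *SIP*, and for called genes of the lists. Values per library of *TIP2-2*, and the other members described by ranges, were chosen after they were seen. In simulated data, 78% of 200 genes changed by a log2 fold change of 0.5, and 100% by 1, were called, with 16 and 18 unchanged genes also called. The changed genes averaged at least 5 FPKM, and the noise was normal with the typical spread of genes of similar level. Genes with a wider spread and libraries that stand apart were not simulated, so these shares may exceed those in the real data. Depth was inferred from the value of 1 read, assuming transcripts shortened by 200 bases. Sequences came from RefSeq TAIR10.1 (Biopython 1.88), whose gene models may differ from those of the files. The 14 alternatives were a pseudocount of 0.1, no filter or one at 5 FPKM, 3 other scalings, no trend, a replicate block and each library left out.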

Additional observations from a re-analysis of the deposited data

How the results depend on the processing

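*CEPDL2* and *BOR1* kept their direction and an adjusted p under 0.05 (limma, Benjamini-Hochberg) in all 14 alternatives, and *NIP1-2*, *PIP1-1*, *PIP1-5* and *TIP2-1* kept their direction. The number of aquaporin genes higher went from 2 to 1 with no filter, with scaling to the same summed FPKM and with no trend, and the number lower went from 2 to 0 with no trend. With 1 library left out, between 0 and 2 aquaporin genes were higher and between 0 and 1 lower. Of all genes, between 259 and 434 (728 with all libraries) were then higher and between 99 and 176 (392) lower, and between 49 and 77 (83) lower past the fold threshold. All genes lower came to 258 with no filter, 211 with no trend and 711 under summed FPKM scaling (125 past the fold threshold), a scaling that moved the median of all genes from -0.027 to -0.11. Under it *PIP2-2* (-0.013), *PIP2-3* (-0.071), *TIP1-1* (-0.060), *TIP4-1* (-0.087) and *NIP6-1* (-0.022) turned below 0, as did *PIP2-3* (-0.015) and *TIP4-1* (-0.0091) after quantile normalization. With a library left out, log2 differences ranged from -0.077 to 0.091 for *PIP2-3*, -0.0098 to 0.11 for *TIP1-1*, -0.022 to 0.25 for *TIP2-3*, -0.058 to 0.038 for *TIP4-1* and -0.070 to 0.23 for *NIP6-1*. Sister ratio differences ranged from -0.058 to 0.10 for *PIP1-3* over *PIP1-4*, from -0.059 to 0.10 for *PIP2-7* over *PIP2-8*, and from -0.021 to 0.15 for *PIP2-2* over *PIP2-3*. With a library left out, aquaporin genes higher without overlap ranged from 4 to 9, beside 17.3% to 19.2% of all genes. Those lower ranged from 11 to 14, beside 21.0% to 22.2%. Apart from the scaling and the smaller number of libraries, the cause of these shifts was not tested. Same-numbered libraries did not deviate together (correlations -0.032 to 0.019), and the main fit used no pairing. Whether libraries of the same number were grown together is not in the labels, and these correlations cannot settle it. With the replicate number as a block, 2 aquaporin genes were higher and 1 lower (*PIP1-5*), and 560 and 280 of all genes. Depth limits *NIP4-2*, *NIP6-1* and *SIP1-2* most, which rested on at most about 10.4, 19.0 and 25.3 reads in any library.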
